A study of Mus musculus with 8 samples.

Results

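The genes described here are 41 mouse genes of DNA replication licensing and synthesis, followed in cells exposed to C28 for 3 h. C28 is a code name, and the labels say no more of the compound. The genes were chosen by gene symbol from a list written with earlier results of these data known. Each of the 41 had 1 row among the 54232 rows of the expression table. All 41 passed the filter on low values that left 19054 genes to test. RNA was sequenced from 3 libraries given the solvent DMSO (the control group) and 3 given C28 (028 in the sample names), all from cultured cells of C57BL/6 background labelled female germline stem cells. No other allele, agent or time point is given in the labels, and they state no dose for C28. The labels do not say whether the 3 replicates were separate cultures, so a p-value here covers the spread from library to library. Whether that spread is technical or lies between cultures was not tested.

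Eukaryotic cells copy their DNA in steps that are kept apart in the cell cycle. In late mitosis and G1 the origin recognition complex (ORC), Cdc6 and Cdt1 load the MCM helicase onto origins, which is called licensing. Cyclin E with its kinase partner and the E2F transcription factors then bring cells into S phase, where Cdc45, the GINS complex and Mcm10 turn the loaded helicase into a moving fork. Polymerases, the sliding clamp and its loader copy the DNA, while ribonucleotide reductase and thymidylate synthase supply the building blocks. Many of these genes are E2F targets, and their RNA rises as cells approach S phase.

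Because the members are known for E2F control, the stretch before the start site of 4 of them is shown, with the letters of an E2F-type motif in capitals. The sequences come from RefSeq promoter windows on GRCm38.p6 (250 bases before to 50 after the start), which is not the build the submitters name, and the 250 bases before the start are printed 5′ to 3′ along the gene.
Cdc6, chr11:98907901-98908150, plus strand: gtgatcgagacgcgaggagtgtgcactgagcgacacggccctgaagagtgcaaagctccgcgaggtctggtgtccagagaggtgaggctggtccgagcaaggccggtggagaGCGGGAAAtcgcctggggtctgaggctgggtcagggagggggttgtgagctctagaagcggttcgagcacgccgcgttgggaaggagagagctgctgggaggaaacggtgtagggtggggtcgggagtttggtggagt
Uhrf1, chr17:56304063-56304312, plus strand: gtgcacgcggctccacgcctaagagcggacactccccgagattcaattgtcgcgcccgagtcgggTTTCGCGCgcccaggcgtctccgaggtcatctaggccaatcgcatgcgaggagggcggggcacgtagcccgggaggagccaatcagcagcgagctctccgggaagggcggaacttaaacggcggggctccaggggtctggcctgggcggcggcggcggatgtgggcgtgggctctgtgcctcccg
Mcm6, chr1:128359706-128359955, minus strand: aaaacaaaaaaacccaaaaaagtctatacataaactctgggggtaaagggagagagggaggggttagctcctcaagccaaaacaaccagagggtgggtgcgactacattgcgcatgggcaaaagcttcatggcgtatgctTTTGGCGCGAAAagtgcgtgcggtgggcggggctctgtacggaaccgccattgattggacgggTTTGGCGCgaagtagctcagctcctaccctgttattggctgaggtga
Orc1, chr4:108579204-108579453, plus strand: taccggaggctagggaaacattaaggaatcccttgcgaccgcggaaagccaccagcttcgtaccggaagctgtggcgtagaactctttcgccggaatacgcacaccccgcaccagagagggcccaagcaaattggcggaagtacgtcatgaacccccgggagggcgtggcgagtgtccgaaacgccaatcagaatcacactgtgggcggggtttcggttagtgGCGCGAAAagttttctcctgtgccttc
The motif was searched on both strands as TTTCCCGC, TTTCGCGC, TTTGCCGC and TTTGGCGC, and matches on opposite strands can overlap, as in Mcm6. Windows were at hand for 33 of the 41 members, 38 windows in all, and 13 members (13 windows, 34.2%) held the motif, against 2.26% of all 32851 windows and 3.59% of the 14442 windows of tested genes. In Cdc6 the match lay at -138 to -131, in Orc1 at -27 to -20 and in Uhrf1 at -185 to -178 relative to the start. Mcm6 had an overlapping pair of matches from -110 to -99 and another match at -47 to -40. In Cdt1 (33 to 40) and Pold1 (40 to 47) the match lay behind the start and is not printed. The other members with a match were Gins3, Mcm3, Mcm5, Mcm7, Orc3, Pola1 and Rfc3. The letters CCAAT, searched on both strands, were in 65.8% of the member windows and 37.4% of all windows. A match is a description of the letters, not of a bound site. The median log2 fold change with C28 was -0.14 for the 13 members with the E2F-type letters and -0.12 for the 20 with a window that lacked them. Only exact letters within these windows were counted, so a member without a match may have a site elsewhere or in other letters. The 2 medians therefore do not separate genes with an E2F site from genes without one.

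Between 16930212 and 19197376 gene reads stood behind each of the 6 RNA libraries. Values are normalised counts, which are reads divided by the authors' size factor for the library, and 1 read was worth between 0.935 and 1.07. The lowest value of any member in any library was 369 and the highest 8921, so none was near the floor of detection. Of 9 germ cell markers, Pou5f1, Dppa3 and Tfap2c were at 0 in all 6 libraries, Dazl and Nanos3 reached at most 0.952 normalised counts, Ddx4 at most 1.91 and Prdm1 at most 11.4. Zbtb16 lay between 7.2 and 74.8, and Ifitm3, which many cell types express, between 80.4 and 285. Kit, a receptor found on germ cells and on blood lineages, lay between 17500 and 24074, and Ptprc, the leukocyte surface protein CD45, between 6568 and 8917. In cells labelled as germline stem cells, Ddx4 and Dazl, which define the germ line, were thus at or near 0. Of 14 leukocyte and mast cell markers, Fcer1a and Tpsb2 were at 0 throughout. Csf1r reached at most 3.83, Ms4a2 at most 2.15 and Cma1 at most 31.1, whereas Cpa3 lay between 5016 and 8401. The summed level of the 14 was 62894.5 to 66527 with DMSO and 59427 to 61802 with C28. Kit and Gata2 made up most of that sum and had lower means with C28 (ratios 0.904 and 0.894), whereas Ptprc and Fcer1g had higher means (1.07 for both), and 5 of the 11 markers tested lay above 0. Replicate 1 stood apart in both groups for some markers. Hdc was at 1.87 (DMSO) and 2.08 (C28) in replicate 1, and at 97.6 to 117 in replicates 2 and 3. Cd68 was at 165 and 182 in replicate 1, and at 439 to 654 in replicates 2 and 3. Ptprc went the other way, at 8157 and 8917 in replicate 1 and at 6568 to 7248 in replicates 2 and 3. For 10 fibroblast and feeder cell markers the sum was 1939, 3613 and 4996 in DMSO replicates 1 to 3. In C28 replicates 1 to 3 it was 2164, 3084 and 5176. Of the 8 markers tested 5 lay below 0. In same-numbered pairs 1 to 3, 4, 8 and 5 of these 8 were lower with C28. One of them, Pdgfrb, fell with the replicate block explained below (0.674-fold, adjusted p by limma 0.0352, and 0.948 without the block). Of 8 ovarian somatic markers, Foxl2, Inhbb, Cyp19a1 and Hsd3b1 were at 0 in all 6 libraries, and Inha and Fshr reached at most 1.03. Amh lay between 8.58 and 18.7 and Cyp11a1 between 5691 and 7728. The part of all these markers in the results below was not tested.

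As a whole the replication genes were slightly lower with C28. The share of gene reads that fell on the 41 members was 0.613%, 0.636% and 0.628% in DMSO replicates 1 to 3 and 0.524%, 0.590% and 0.598% in C28 replicates 1 to 3. The 3 C28 shares lay below the 3 DMSO shares, and C28 replicate 1 was the lowest. In bulk RNA, fewer cells of a kind (here, cells in or near S phase) and less RNA per cell cannot be told apart. The median log2 fold change of the members, on the log2(normalised count + 1) scale, was -0.12, beside 0.0042 over all genes tested. Of the 41 members 37 lay below 0, as did 49% of all genes tested and 52.2% of the 10572 genes averaging at least 50. No member lay above 1.03-fold (Gins3), and the lowest was Cdc6 at 0.759-fold.

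**Figure D1:**
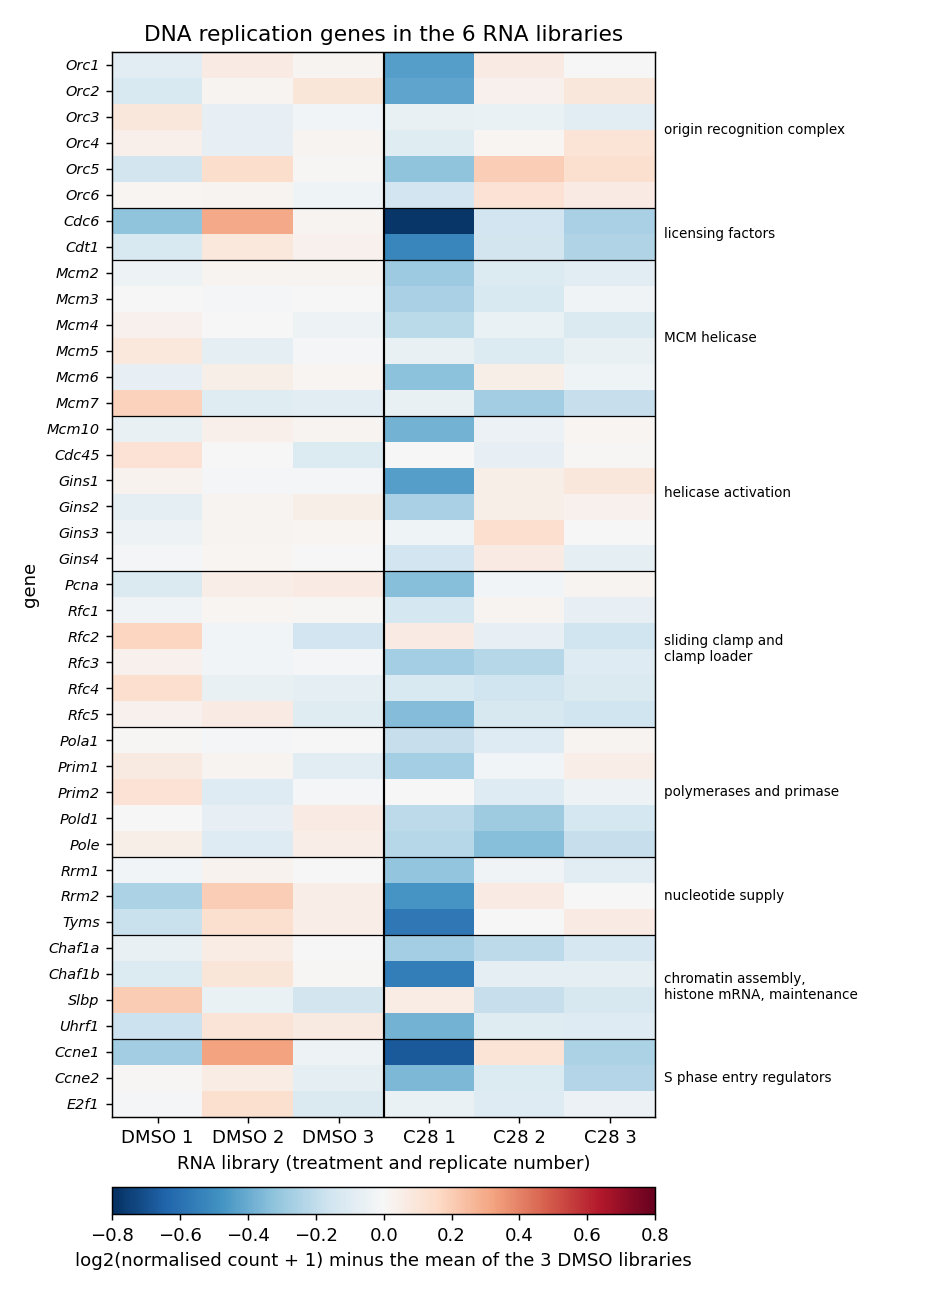
Heat map of the 41 genes (rows, grouped by role) in the 6 RNA libraries (columns). Colour gives log2(normalised count + 1) minus the mean of the 3 DMSO libraries of that gene, blue for lower and red for higher. The column of C28 replicate 1 is the bluest and holds the lowest value of 29 of the 41 genes (the share over all genes tested was not computed).

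The first comparison asks whether single members differed between C28 and DMSO when the libraries were treated as 2 groups of 3. No member passed. With limma and Benjamini-Hochberg adjustment over all 19054 genes, 0 of 41 members had an adjusted p under 0.05, where 0.136% of all genes did. At an unadjusted p under 0.05 limma gave 8 of 41 members, beside 7.83% of all genes. In a limma fit to the 10572 genes averaging at least 50, 1028 genes had an unadjusted p under 0.05. By adjusted p, edgeR and DESeq2 each called 0 members, beside 0.147% and 0.955% of all genes. The limma adjusted p ranged from 0.454 (Pole) to 1.00 (Orc5). In the authors' deposited table the lowest adjusted p among the 41 was 0.289 (Pole), and none was under 0.05.

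The second comparison uses the replicate numbers, since libraries of the same number deviated together. The labels state no pairing, so it was inferred from these same data. Replicates 2 and 3 also correlated across their numbers (0.54 and 0.41), so which of these libraries belong together is not settled. The replicate block is a term for the replicate number in the fit, so that each C28 library is set against the DMSO library of its number. In that fit limma called 6 of 41 members, all lower with C28: Cdc6, Cdt1, Pole, Pold1, Uhrf1 and Ccne1. That is 14.6% of the members, where 2.25% of all genes tested fell in the same fit. In that fit 0 members rose, against 2.55% of all genes. The 19054 genes include many low ones, as 10572 averaged at least 50, whereas every member was at 369 or more. For the fit with the block, shares among genes of like level were not computed. The size of each change is the same in both fits, and the median standard error of the members went from 0.089 without to 0.059 with the block. With the block, edgeR had 11 members fall, which included these 6, beside 3.28% of all genes, and DESeq2 had 6 fall, of which 5 were the same, beside 1.82%. The calls rest on few libraries: with pair 2 left out 0 members passed, with pair 3 left out 1 (Cdc6), and with pair 1 left out 5, without Ccne1 (adjusted p 0.0519 by limma). Without pair 2 the log2 fold changes of the 6 were -0.37 (Cdc6), -0.34 (Cdt1), -0.26 (Pole), -0.21 (Pold1), -0.19 (Uhrf1) and -0.30 (Ccne1), close to those from all 3 pairs. The fibroblast marker Pdgfrb, which fell in the same fit, missed the threshold without pair 2 or pair 3 (limma adjusted p 0.383 and 0.314).

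**Figure D2:**
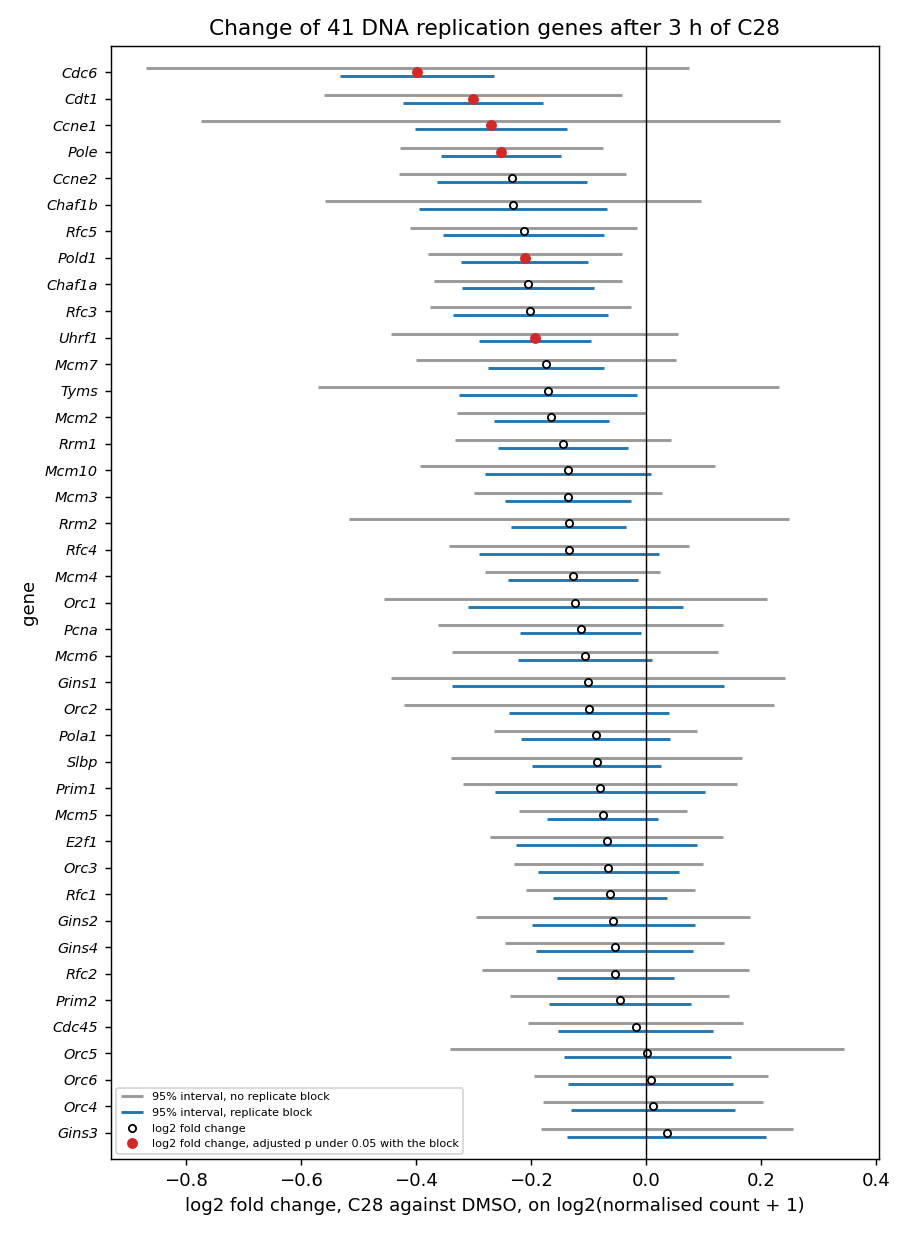
Log2 fold change of each member (horizontal axis, C28 against DMSO on log2(normalised count + 1)), with 95% confidence intervals from limma without (grey) and with (blue) the replicate block. Filled red points mark the 6 members with an adjusted p under 0.05 with the block, and the 4 lowest rows, Orc5, Orc6, Orc4 and Gins3, are the members above 0.

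Cdc6 and Cdt1, which load the MCM helicase, had the lowest fold changes of the 41. Cdc6 was at 972, 1499 and 1234 normalised counts in DMSO replicates 1 to 3 and at 708, 1092 and 1016 in C28 replicates 1 to 3. The groups overlapped, because DMSO replicate 1 lay below C28 replicates 2 and 3, but each C28 library was below the DMSO library of its number. The log2 fold change was -0.40 (0.759-fold), with a standard error of 0.20 without the block (limma adjusted p 0.73) and 0.061 with it (limma adjusted p 0.00426). It was -0.21 without C28 replicate 1 and -0.25 without DMSO replicate 2, and from -0.46 to -0.37 with the block and 1 pair left out. Cdt1 was at 1531, 1766 and 1702 with DMSO and at 1159, 1504 and 1410.2 with C28. Here all C28 libraries lay below all DMSO libraries. The log2 fold change of Cdt1 was -0.30 (0.812-fold, 95% interval with the block -0.42 to -0.18), with a limma adjusted p of 0.56 without and 0.011 with the block, and it was -0.19 without C28 replicate 1. Gmnn, which binds Cdt1 and blocks relicensing, was at 1095 ± 122 and 973 ± 24.3 (SD, n = 3 each), with a limma adjusted p of 0.242 with the block.

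For the 6 ORC subunits, which mark the origins, the fold changes were small. Their log2 fold changes ran from -0.12 (Orc1) to 0.012 (Orc4), 3 lay above 0, and none passed in either fit (limma adjusted p at least 0.455 with the block). Orc3, the subunit with the lowest p without the block, was at 1557, 1394 and 1438 normalised counts with DMSO and at 1404, 1411 and 1374 with C28, and the groups overlapped. Its 95% interval with the block, -0.19 to 0.057 on the log2 scale, holds a decrease as well as no change. That of Orc1 was wider, from -0.31 to 0.064. C28 replicate 1 held the lowest value of 5 of the 6 ORC genes. In pair 1 all 6 ORC genes were lower with C28 (median log2 ratio -0.17), whereas in pair 2 none was and in pair 3 there were 3.

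The 6 subunits of the MCM2-7 helicase were each lower with C28 in 3 of 3 pairs, by small amounts. Their log2 fold changes lay between -0.17 (Mcm7) and -0.075 (Mcm5), and none passed in limma, with adjusted p from 0.0604 (Mcm7) to 0.413 (Mcm5) with the block. Mcm2 was at 6012, 6260.2 and 6267 normalised counts with DMSO and at 5043, 5725 and 5797 with C28, so that the groups did not overlap. Its log2 fold change was -0.16 (0.892-fold), with a limma adjusted p of 0.638 without and 0.0713 with the block. Mcm3 and Mcm4 were also without overlap, and Mcm5, Mcm6 and Mcm7 overlapped. With the block, edgeR put Mcm2 and Mcm7 past the threshold and DESeq2 put Mcm7 past it.

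For the genes that turn the loaded helicase into a fork, the fold changes were small. Mcm10, Cdc45 and the GINS genes Gins1 to Gins4 ranged from -0.14 (Mcm10) to 0.036 (Gins3) on the log2 scale, and none passed in either fit (limma adjusted p at least 0.305 with the block). Gins3 was at 375, 392 and 389 normalised counts with DMSO and at 377, 424 and 386 with C28, and its 95% interval with the block ran from -0.14 to 0.21. Gins1, given here after its values were seen, was at 511, 498 and 496 with DMSO and at 369, 519 and 533 with C28. Only C28 replicate 1 was low for Gins1, and with pair 1 left out its log2 fold change was 0.082 in place of -0.10. The 95% intervals with the block, -0.34 to 0.14 for Gins1 and -0.28 to 0.0080 for Mcm10, hold decreases as well as no change.

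Pole and Pold1 encode the catalytic subunits of the polymerases that copy the leading and lagging strands. Pole was at 2361, 2134 and 2378 normalised counts with DMSO and at 1955, 1805 and 2009 with C28. Pold1 was at 1706, 1627 and 1780.2 with DMSO and at 1470.4, 1399 and 1548 with C28. In both genes the groups did not overlap, and the 3 pairs gave nearly the same ratio, with log2 ratios of -0.27, -0.24 and -0.24 for Pole and -0.21, -0.22 and -0.20 for Pold1. Pole fell to 0.84-fold with the block (limma adjusted p 0.0122, and 0.454 without) and Pold1 fell to 0.864-fold (limma adjusted p 0.0378, and 0.519 without). DESeq2 with the block did not call Pold1 (adjusted p 0.0699). The genes of the primase complex that begins each new strand, Pola1, Prim1 and Prim2, lay between -0.088 and -0.046 on the log2 scale and did not pass.

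The sliding clamp Pcna and the 5 subunits of its loader were all below 0, between -0.21 (Rfc5) and -0.053 (Rfc2) on the log2 scale, and none passed in limma. Rfc3 was at 1224, 1179.9 and 1185 normalised counts with DMSO and at 989.9, 1020.5 and 1114 with C28. Rfc5 was at 1897, 1939 and 1736 with DMSO and at 1457, 1697 and 1658 with C28. Neither gene had overlapping groups, and both missed the threshold with the block (limma adjusted p 0.0982 for Rfc3 and 0.0929 for Rfc5), although edgeR with the block called Rfc5 (adjusted p 0.0392). Pcna itself was at 6012 ± 420 and 5580 ± 731 (SD, n = 3 each). It was lower with C28 in 3 of 3 pairs (log2 ratios -0.22, -0.075 and -0.046), with a 95% interval with the block of -0.22 to -0.0091, and did not pass after adjustment (limma adjusted p 0.235 with the block).

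Ribonucleotide reductase (Rrm1 and Rrm2) and thymidylate synthase (Tyms) supply deoxynucleotides. Rrm1 was at 8114, 8396 and 8214 normalised counts with DMSO and at 6635, 8066 and 7729 with C28. The groups of Rrm1 did not overlap, and C28 replicate 1 was far below the other 5 libraries. Its log2 fold change was -0.15 (limma adjusted p 0.155 with the block), and Rrm2 and Tyms, at -0.13 and -0.17, did not pass either.

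Of the genes for rebuilding and marking chromatin behind the fork, Uhrf1 passed with the block. Chaf1a, the large subunit of the histone chaperone CAF-1, was at 1791, 1943 and 1857 normalised counts with DMSO and at 1541, 1609.6 and 1699 with C28, without overlap (0.867-fold). With the block it missed the threshold in limma (adjusted p 0.0521) and passed it in edgeR (adjusted p 0.0287). Uhrf1, which carries DNA methylation over to the new strand, was at 3065, 3718 and 3632 with DMSO and at 2659.6, 3233 and 3214 with C28. The groups of Uhrf1 overlapped, but its 3 pairs were alike (log2 ratios -0.20, -0.20 and -0.18), and it fell to 0.874-fold with the block (limma adjusted p 0.0309, and 0.755 without). Its log2 fold change of -0.19 was -0.10 without C28 replicate 1, and from -0.20 to -0.19 with the block and 1 pair left out. Chaf1b, at -0.23 on the log2 scale, and Slbp, the binding protein of histone mRNA, at -0.086, did not pass.

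Among the regulators of S phase entry, the cyclin E genes were lower and E2f1 was nearly level. Ccne1 was at 1072, 1621 and 1263 normalised counts with DMSO and at 817, 1404 and 1092 with C28. Its spread between replicate numbers was wider than its C28 difference, with replicate 1 lowest and replicate 2 highest in both groups. Ccne1 fell to 0.829-fold with the block (limma adjusted p 0.0276, and 0.87 without). Without the block its log2 fold change of -0.27 became -0.070 when C28 replicate 1 was left out and -0.46 when C28 replicate 2 was. Leaving out DMSO replicate 2 gave -0.11, and leaving out DMSO replicate 1 gave -0.41, whereas with the block and 1 pair left out it lay between -0.30 and -0.21. Ccne2 was at 1552, 1609 and 1467 with DMSO and at 1204, 1428 and 1313 with C28, without overlap, and stood at 0.851-fold. With the block Ccne2 missed the threshold in limma (adjusted p 0.0508) and DESeq2 (0.0683), and passed it in edgeR (0.0205) and in limma on equal library totals (0.0452). E2f1 was at 817 ± 70.3 and 778 ± 16.4 (SD, n = 3 each), a log2 fold change of -0.069 with a 95% interval of -0.23 to 0.088 with the block.

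**Figure D3:**
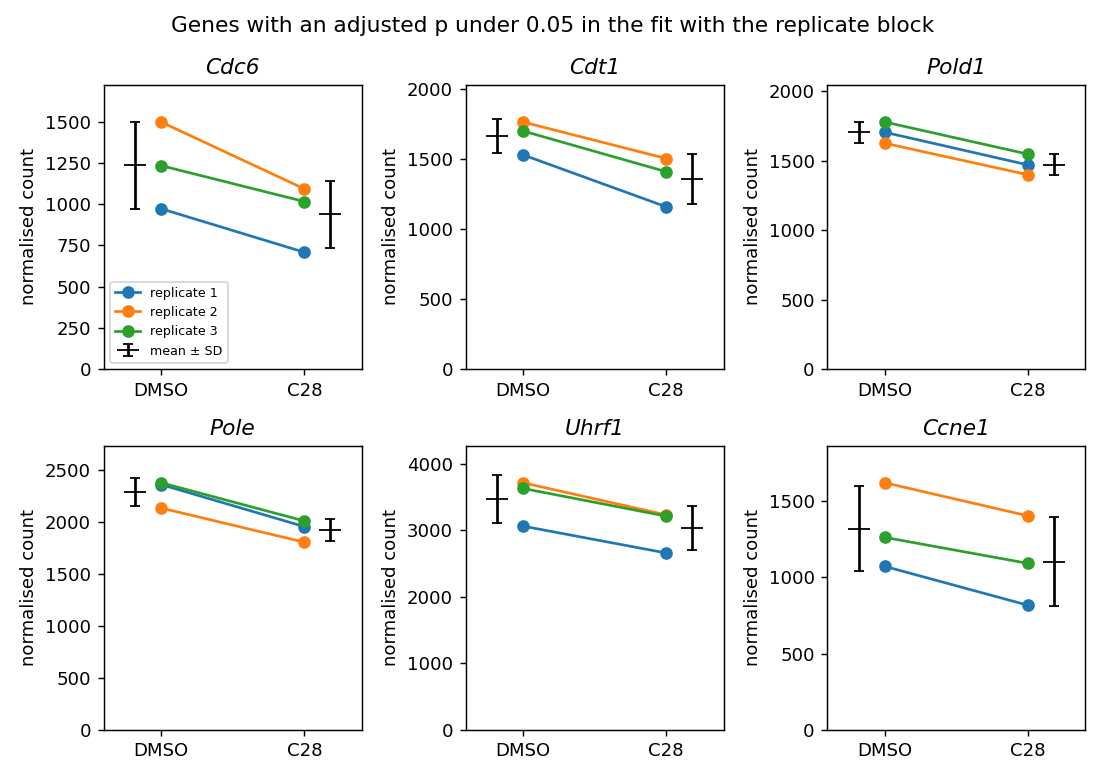
Normalised counts (vertical axes, from 0) of the 6 members with an adjusted p under 0.05 in limma with the replicate block. Points are libraries, lines join libraries of the same replicate number, and black bars give the mean ± SD of 3 libraries; every line goes down from DMSO to C28, while Cdc6, Uhrf1 and Ccne1 differ more between replicate numbers than Pold1 does.

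The pairs were not alike in size. The median log2 ratio of the 41 members was -0.24 in pair 1, -0.085 in pair 2 and -0.051 in pair 3, where the medians over all genes tested were 0.012, 0.0011 and 0.0071. In pair 1, 40 members were lower with C28, with Gins3 the exception, and 30 and 31 were lower in pairs 2 and 3. Of all 19054 genes tested, 9038, 9319 and 9129 were lower in pairs 1 to 3. In all, 24 members were lower in 3 of 3 pairs, against 18.8% of all genes tested, and 0 were higher in 3 of 3, against 20.6%. All C28 libraries lay below all DMSO libraries for 12 members, where 6.49% of all genes did so. The opposite held for 0 members and 8.16% of all genes. Many of all genes tested were lower in level than any member, and for these counts shares among genes of like level were not computed. C28 replicate 1 held the lowest value of 29 members. Without that library the median of the members was -0.070, with 29 of 41 below 0. Replicate 1 was the lowest replicate in both groups for 20 members and the highest in both for 5. Shares over all genes tested were not computed for the counts of lowest and highest libraries.

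**Figure D4:**
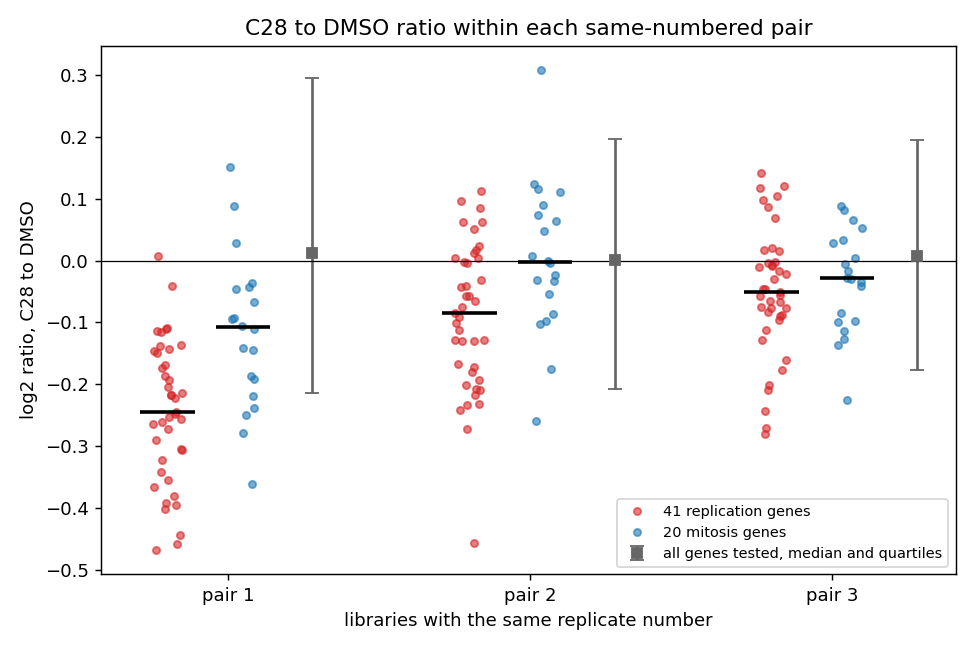
Log2 ratio of C28 to DMSO (vertical axis) within each same-numbered pair of libraries, for the 41 replication genes (red), 20 mitosis genes (blue) and all genes tested (grey square with quartiles). Each point is a gene and black bars are medians, which for the replication genes were -0.24, -0.085 and -0.051 in pairs 1 to 3.

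Other genes of the pathway were taken from 6 lists with 92 genes, likewise written with earlier results known, of which 91 genes were tested. Their median log2 fold change was -0.092 and 72 lay below 0, as did 49% of all genes tested. Without the block 0 passed in limma and in edgeR, DESeq2 called 4 (0.955% of all genes), and 16 had a limma p under 0.05 before adjustment (7.83% of all genes). The 4 that DESeq2 called were E2f8, Dtl and Cdca7, lower with C28 (DESeq2 adjusted p 0.0181, 0.0217 and 0.0316), and Cdkn1a, higher (0.0396). With the block 9 fell and 2 rose by limma, where 2.25% and 2.55% of all genes did. Of 12 further licensing and firing genes none passed, with a median of -0.060.

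Those that fell with the block included genes that act on members described above. Dtl, the substrate receptor of the ubiquitin ligase that destroys Cdt1 on PCNA, was at 1573, 1579 and 1564 normalised counts with DMSO and at 1126, 1292 and 1237 with C28 (0.774-fold, limma adjusted p 0.00469). Cdc25a, the phosphatase that activates the kinase bound to cyclin E, was at 1659 ± 114 and 1306 ± 96.4 (SD, n = 3 each; 0.787-fold, limma adjusted p 0.0035 with the block). E2f8, a repressor of E2F targets that is itself one, fell from 1291 ± 86.9 to 988 ± 15.6 (0.766-fold; by limma with the block, adjusted p 0.00551). Skp2, a ubiquitin ligase subunit that targets the inhibitor p27, also fell with the block (0.801-fold, limma adjusted p 0.018), and is given after its value was seen. In the groups of Dtl, Cdc25a and E2f8 all C28 libraries lay below all DMSO libraries.

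Of 10 further nucleotide supply genes, 26 further fork genes and 11 tested chromatin replication genes, 2, 2 and 1 fell with the block and 0 rose. Tk1, thymidine kinase, fell from 813 ± 54.1 to 631 ± 26.5 normalised counts (0.776-fold, SD, n = 3 each; limma adjusted p 0.008 with the block), and Ctps, which makes CTP, fell to 0.829-fold (adjusted p 0.0183 by limma with the block). Wdhd1, which links polymerase alpha to the helicase, fell to 0.836-fold and Chtf18, a subunit of an alternative clamp loader, to 0.791-fold (limma adjusted p 0.0226 and 0.0452 with the block). Without the block the limma adjusted p was 0.454 for Wdhd1 and 0.639 for Chtf18, and DESeq2 with the block did not call Chtf18 (adjusted p 0.0782). Cdca7, a partner of the chromatin remodeller Hells, fell from 2815 ± 95.7 to 2139 ± 229.5 (0.757-fold; by limma with the block, adjusted p 0.00691).

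Cdkn1a, which encodes the inhibitor p21 of cyclin-dependent kinases, went the other way. It was at 2332, 2867 and 2514 normalised counts with DMSO and at 3263.5, 3720.4 and 3268 with C28, without overlap. With the block it rose 1.33-fold (limma adjusted p 0.000771, and 0.281 without). Tfdp2, a dimer partner of E2F proteins, was the other gene of the 6 lists that rose with the block (1.28-fold, limma adjusted p 0.0219), and is given after its value was seen. Ccna2, the S phase and G2 cyclin, was at 5045 ± 255 and 4517 ± 203 (SD, n = 3 each) and did not pass (limma adjusted p 0.14 with the block).

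The 20 mitosis genes were set beside the members as the nearest other group of the cell cycle. Their median log2 fold change was -0.034, with 16 below 0 (49% of all genes), and 2 fell with the block (2.25% of all genes): Kif23, a motor of cell division (0.838-fold, limma adjusted p 0.0209), and Aurkb, a mitotic kinase (0.856-fold, limma adjusted p 0.028). The medians in pairs 1 to 3 were -0.11, -0.0020 and -0.029. Whether the replication genes differed from the mitosis genes was not tested.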

How the data were processed

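RNA was measured in 3 DMSO and 3 C28 libraries, grouped and numbered by their titles. The submitters' processing notes name mm9, Bowtie2 and Cufflinks 2.2.1 without saying what each was used for. The read counter is not given in the sources used here. Its strand setting is unknown too, so reads of overlapping antisense genes may have been mixed. The deposited values are a signal in which, as the values show, the authors scaled the reads of each gene by a factor for its library: 100% came out whole, within 0.01, after division by what 1 read is worth. The deposited table also has a log2 fold change and an adjusted p-value from the authors. The H3K27ac peak lists, 1 library per group, were not analysed here, because they are on mm9 and the gene positions used here are on GRCm38.

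Rows sharing a name were reduced to the one with the highest mean. A gene was tested if 3 or more of the 6 libraries reached a value of 1, with limma 3.58.1 (R 4.3.3, intensity trend) on log2(value + 1), with p-values adjusted by Benjamini and Hochberg over all 19054 genes and a threshold of 0.05. The log2(value + 1) scale understates changes of low genes. A count test had been planned only if the file held counts, so edgeR 4.0.16 and DESeq2 1.42.0 were run on the recovered reads as alternatives. The fits were tested on simulated data that held no replicate effect. At 0.75-fold limma recovered 68% of the changed genes without and 66% with the block, and at 0.5-fold 100% in both. No member lay below 0.759-fold, so changes of the size seen in the members could be missed. Without a replicate effect the simulation does not show how the fit without the block performs on these libraries.

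Deviations from the group means, over 10572 genes averaging at least 50, correlated at 0.84, 0.68 and 0.70 between same-numbered libraries. Every same-numbered pair exceeded 0.1, so the numbers were treated as pairs, on the data alone because the labels give none. Replicates 2 and 3 also exceeded 0.1 across numbers (0.54 and 0.41), so this check does not settle which of them belong together. A blocked value stands beside each result it changed.

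The members and lists were chosen with earlier results of these data known. Members were given with the value of every library where they passed in either limma fit or had an unadjusted p under 0.05, as were the highest fold change and, for a role with none of these, its member with the lowest p; of the other lists, up to 3 genes that passed in either fit, and Ccna2, Cdkn1a, Gmnn, Dtl and Cdc25a. Promoter windows came from RefSeq (GRCm38.p6).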

Additional observations from a re-analysis of the deposited data

How the results depend on the processing

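The median log2 fold change of the 41 members stayed below 0 under all 22 alternatives, from -0.17 to -0.058, the latter with the replicate block and pair 1 left out. Without the block 0 members passed under any pseudocount, filter, scaling, tool or left-out library tried. With the replicate block 6 members fell by limma, 11 by edgeR and 6 by DESeq2, and 8 and 6 with values rescaled to the same library total or by TMM factors, scalings that were combined with the block after seeing the data. Of the other replication genes 11 were called with the block by limma, 19 by edgeR and 11 by DESeq2, 11 and 10 under the same 2 rescalings, and 4 by DESeq2 without the block. Over the whole table limma called 26 genes, and 914 with the block, 890 and 868 with the block under the 2 rescalings, and DESeq2 182, DESeq2 with the block 743 and edgeR with the block 1332.

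Leaving out 1 library gave 0 to 23 genes over the whole table. Leaving out 1 pair from the fit with the block gave 0 (pair 2) to 5 (pair 1) members, 0 (pair 2) to 11 (pair 1) other replication genes and 50 (pair 2) to 853 (pair 1) genes over the whole table, with 207 without pair 3. With any 1 pair left out only 2 pairs remain, and the number of lost calls differed with the pair that was left out. The cause of the lost calls was not tested. With 1 library or pair left out the log2 fold change of Gins3 ran from -0.014 (without C28 replicate 2) to 0.071, and was -0.0019 with the block without pair 2, and that of the fibroblast marker Pdgfrb ran from -1.35 to 0.10 (without C28 replicate 1). Of 616 values of 28 single genes under the alternatives, 501 kept their direction and their side of the threshold, 112 passed it where they had not before, all of them with the block or by DESeq2, 0 were lost and 3 changed sign. The planned count of members with an H3K27ac peak at the start site, and its alternatives, was not run because the builds differ. Every member had at least 356 reads in every library, where counting error alone is 0.076 on the log2 scale for 1 library, which limits how small a change can be seen in the lowest members.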
